A study of Rattus norvegicus with 3 samples.

Results

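Heat shock proteins and other chaperones were compared between rat induced pluripotent stem (iPS) cells and adult rat cells. The genes were chosen by name on the array, as names that start with Hsp or Dnaj, or with Cct or Bag and a digit, together with Tcp1, Canx and Calr, and without Hspg2. They numbered 68 of the 35493 gene names on the array and were covered by 103 probes. A probe was kept where its signal was well above background in the same RNA on all 3 arrays, and 61 of the 68 genes had such a probe, of 20321 genes on the whole array. The rule itself reads names and no measured value, but it was set with earlier results of these data known.

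The iPS cells were the line M13, untreated, reprogrammed to a state like that of embryonic stem cells and kept on irradiated mouse embryonic fibroblasts, in 3 samples numbered 1 to 3. The adult RNA, mix1, was a mixture from cultured bone marrow cells (BMC) and cultured primary ear fibroblasts (PEF). Each of the 3 arrays carried 1 iPS sample in Cy3 and mix1 in Cy5, so every ratio below is iPS M13 over mix1 on a log2 scale, positive where iPS M13 was higher. No array had the dyes swapped, so a dye effect and a group effect cannot be told apart. Whether the 3 samples are separate cultures is not said in the labels. The p-values therefore cover the spread between these samples alone, which may be technical, and mix1 is 1 RNA whose own spread is left out.

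Chaperones bind proteins that are not yet folded or have come unfolded. In the cytosol HSP70 works with J-domain (DNAJ) partners that bring it substrates and with HSP110 and BAG proteins that exchange its nucleotide, while HSP90 acts on signalling proteins, small heat shock proteins hold unfolded chains, and the ring-shaped chaperonin TRiC folds actin, tubulin and other proteins. The endoplasmic reticulum (ER), where secreted proteins fold, and the mitochondrion have chaperones of their own. Heat shock factor 1 (HSF1) raises many cytosolic and mitochondrial chaperones when proteins unfold, and the unfolded protein response raises those of the ER.

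Each array had 45018 spots. Well above background were 53.5% to 60.8% of probes in the iPS channel and 52.4% to 61.0% in the mix1 channel, and the ratios of any pair of arrays had a correlation of 0.997 to 0.998 over genes, which do not count as replicates. With 3 arrays, precision is limited by their number. All 5 pluripotent markers (Sox2, Pou5f1, Epcam, Dnmt3b, Cdh1) were higher in iPS M13, with ratios of 2.62 to 4.71 apart from Pou5f1, which was at least 2.48-fold higher, and with a summed log2 signal of 14.54 to 14.61 in iPS M13 and 10.86 to 10.98 in mix1. All 5 fibroblast markers (Col1a1, Col3a1, Dcn, Thy1, Vim) were lower, with ratios of -10.79 to -5.26 apart from Thy1, at least 24.6-fold lower, and with sums of 13.28 to 13.57 in iPS M13 and 20.32 to 20.51 in mix1. The 5 macrophage and blood markers (Cd14, Lyz2, Ptprc, Itgb2, Laptm5) were lower as well, with ratios of -7.49 to -5.42 apart from Ptprc, at least 1.83-fold lower, and with sums of 10.95 to 11.07 and 17.59 to 17.69. The bounds are given because Thy1 and Ptprc were not well above background in iPS M13 on any array, nor Pou5f1 in mix1, where Epcam was on 2 of 3 arrays. The cell types of the 2 RNAs thus move with every ratio below, and their part in the results was not tested. In such bulk RNA fewer cells of a type and less RNA per cell cannot be told apart. Hybridisation of RNA from the mouse feeders to the rat probes was not tested.

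Of the 61 measured chaperone genes, 16 were higher in iPS M13 and 15 were lower, where a call needed an adjusted p under 0.05 (limma, Benjamini-Hochberg over all genes) and a change of at least 2-fold. That is 26.2% higher and 24.6% lower, against a background of 18.7% higher and 25.5% lower among all genes tested. The median ratio was 0.09 for the chaperones and -0.03 for all genes. The adjusted p passed for 60 of the 61, the exception being Hspbp1 (adjusted p = 0.335), so it was mainly the 2-fold limit that set the calls. The highest adjusted p of a called chaperone was 0.000424, for the J-domain gene Dnajb5. All 61 had the same sign on 3 of 3 arrays. The split depended on the normalization, which also moved the median of all genes, but not every group by the same amount. Without loess, and with each array centred on its median, the median of all genes shifted by 0.60. The chaperones were then 25 higher and 8 lower (41.0% and 13.1%, against 36.4% and 17.8% of all genes). The median of the HSP110 genes went from 1.23 to 2.08 and that of the HSP90 genes from 0.59 to 0.90. The split was 25 to 10 with no within-array normalization, where the median of all genes shifted by 0.55. There 34.5% of all genes were higher and 18.4% lower. In the scanner software's processed signals the split was 21 to 13, and the median of all genes shifted by 0.32. Of all genes 31.1% were higher there and 23.8% lower. The chaperones' shares thus moved with those of all genes.

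**Figure D1:**
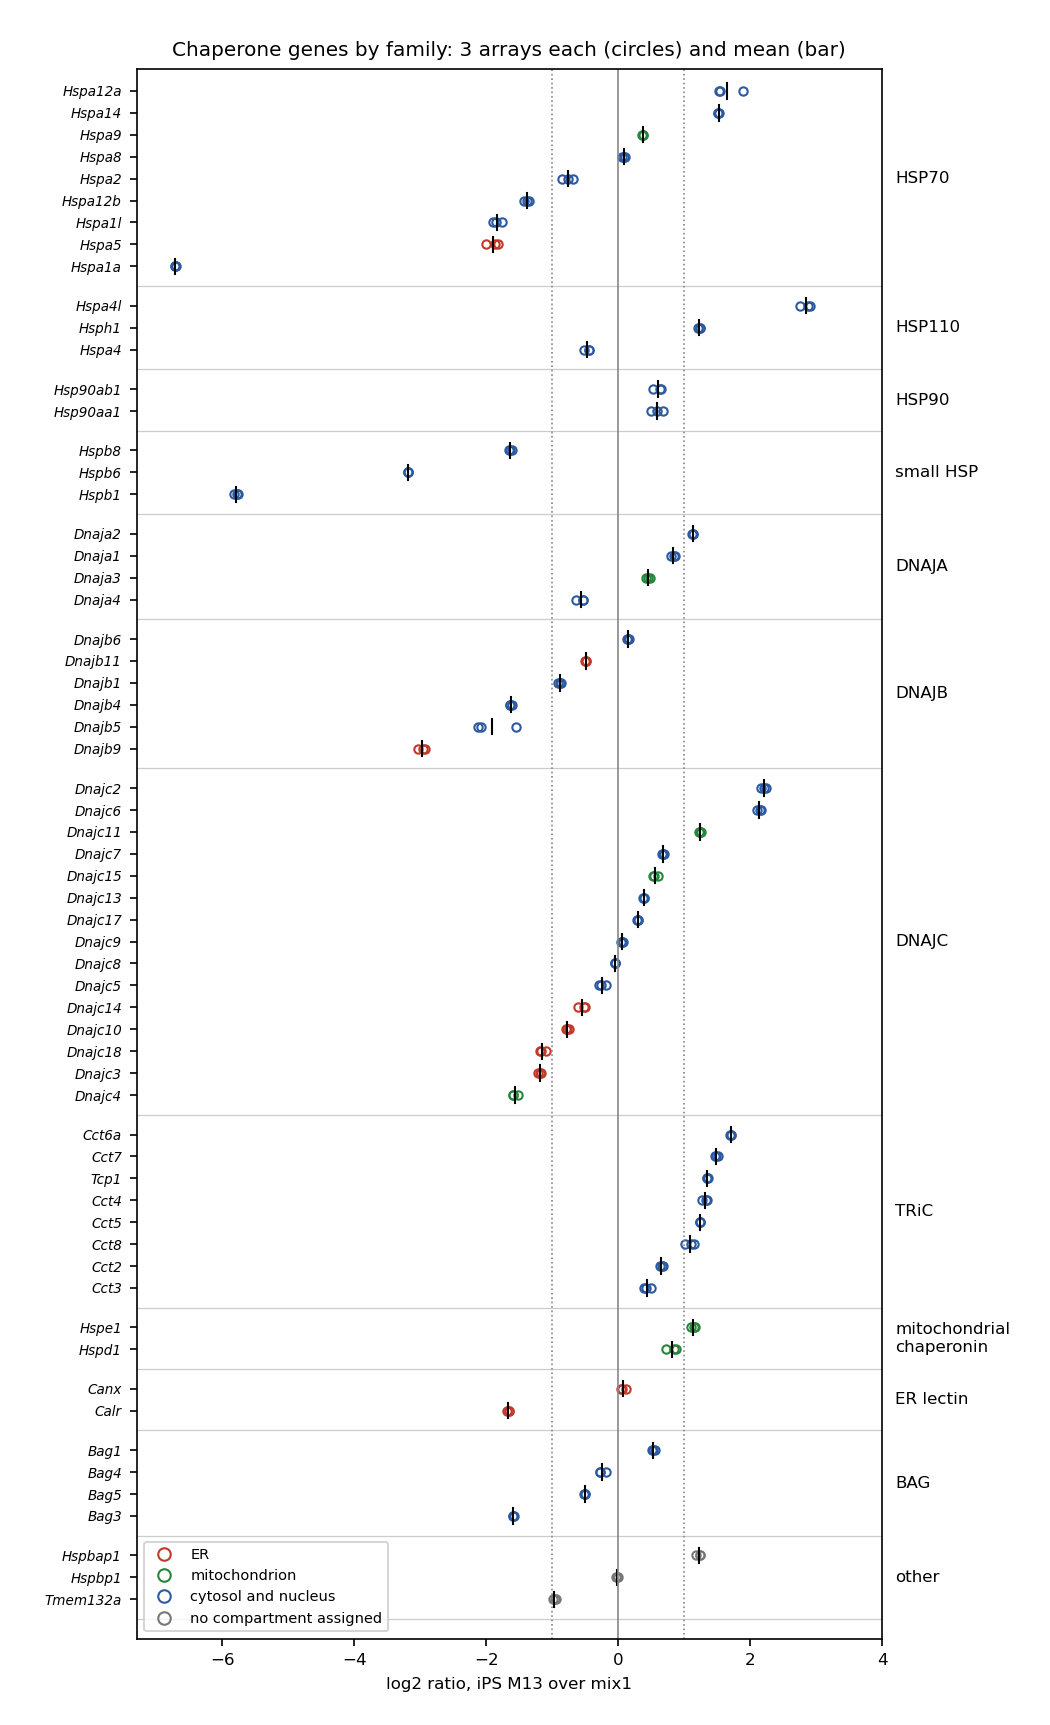
Log2 ratio of iPS M13 over mix1 for the 61 measured chaperone genes, by family, with a circle for each of the 3 arrays and a bar for their mean. Dotted lines mark 2-fold. All 8 TRiC genes lie above 0, all 3 small heat shock genes lie below -1, and Hspa1a and Hspb1 lie farthest to the left.

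Promoter sequences are given for the ER and heat shock genes whose start site region (250 bases before to 50 after, RefSeq, build GRCr8) holds a word linked to those responses. Promoters matched 56 of the 68 genes, from a table of 27457 genes. The ER word was CCAAT, any 9 bases, CCACG, on either strand, and stood in 21 promoters of the table, which is 0.0765%, and in 4 of the 56, namely Hspa5, Calr, Dnajc3 and Canx. Capitals mark the word. Calr carries it on the opposite strand.
Hspa5, chr3:38452953-38453011, plus strand: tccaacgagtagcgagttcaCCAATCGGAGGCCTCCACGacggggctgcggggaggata
Calr, chr19:40213117-40213173, plus strand: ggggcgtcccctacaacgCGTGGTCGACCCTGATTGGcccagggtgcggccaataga
Dnajc3, chr15:102432514-102432572, plus strand: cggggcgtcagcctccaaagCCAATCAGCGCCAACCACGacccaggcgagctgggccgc
Canx, chr10:35158049-35158107, minus strand: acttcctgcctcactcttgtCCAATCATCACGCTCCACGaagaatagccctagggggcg
Of these 4 genes, Hspa5, Calr and Dnajc3 were lower in iPS M13, where 25.5% of all genes were, and Canx was not called. Hsp90b1 and Creld2, ER genes outside the naming rule, also carry the word and were not called, at -0.60 and -0.26. A match is a description and not evidence of binding.

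The heat shock word was 3 alternating units of GAA and TTC, each 2 bases apart, in either order and on either strand. It stood in 202 promoters of the table, 0.736%, and in 6 of the 56, namely Hspa8, Hspd1, Hspe1, Hsph1, Dnaja1 and Cct4. In Dnaja1 and Cct4 it lay after the start site. Windows before the start site are shown for the other 4, with the word in capitals. A further Hspa8 match, at bases -213 to -201 from the start site, is not shown.
Hspe1, chr9:64084242-64084299, plus strand: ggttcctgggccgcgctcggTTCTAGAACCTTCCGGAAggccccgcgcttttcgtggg
Hspd1, chr9:64084242-64084287, minus strand: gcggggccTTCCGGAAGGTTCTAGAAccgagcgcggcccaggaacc
Hsph1, chr12:10427312-10427364, plus strand: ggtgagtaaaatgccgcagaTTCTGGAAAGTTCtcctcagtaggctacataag
Hspa8, chr8:50080439-50080491, plus strand: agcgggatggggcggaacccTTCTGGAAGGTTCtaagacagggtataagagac
Hspd1 and Hspe1 start 290 bases apart on opposite strands, and their promoter entries share 211 bases, so the first pair of lines is the same DNA read both ways. The word was not found in the entries of Hspa1a and Hspb1, which says only that these letters are not in those windows. Serpinh1 and Chordc1, genes outside the naming rule, also carry the heat shock word, which in Chordc1 lay after the start site. Serpinh1 was lower at -7.07 and Chordc1 higher at 1.49.

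Chaperones of the ER were mostly lower in iPS M13. Of 9 measured, 5 were lower (55.6%, against 25.5% of all genes) and 0 were higher (against 18.7%). Of the 9 ratios 8 were negative, and the median was -1.15, against -0.03 over all genes. The median was -1.09, -1.19 and -1.16 on arrays 1, 2 and 3. Without loess and with median centring only 2 of the 9 were lower (22.2%, against 17.8% of all genes in that setting). Measured against the median of all genes in the same setting, the ER median still stayed between -1.15 and -0.93 in every setting tried.

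Hspa5 (BiP), the HSP70 of the ER and its most abundant chaperone, had log2 signals in iPS M13 of 15.33 on array 1 against 17.19 for mix1. Its ratios were -1.862, -1.996 and -1.820, which is -1.89 ± 0.09 (SD, n = 3; limma adjusted p = 1.25e-05). All 3 arrays lay below -1. Dnajb9 (ERdj4), a J-domain partner of BiP that is itself induced by ER stress, was the lowest ER gene, with ratios of -2.96, -2.93 and -3.03 (-2.98 ± 0.05), and its other probe gave -2.55. Calr (calreticulin), a soluble calcium-binding lectin that holds new glycoproteins, had ratios of -1.65, -1.69 and -1.65 (-1.66 ± 0.02), and -0.99 with median centring, just short of the call. Its membrane-bound counterpart Canx (calnexin) had 0.04, 0.11 and 0.06 (0.07 ± 0.04), which was not called and turned to -0.24 once the trend with probe GC content was taken off. The ranges of the 2 lectins over the arrays did not overlap. Dnajc3 (P58IPK), a BiP partner that also inhibits the ER stress kinase Eif2ak3, was lower at -1.19 ± 0.02, and Dnajc18 was lower at -1.15 ± 0.05. Both fell under the 2-fold limit without loess and in the processed signals. Not called were Dnajc10 (ERdj5), a disulfide reductase, at -0.78, Dnajc14 at -0.55 and Dnajb11 (ERdj3) at -0.49.

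The wider ER folding machinery, from genes outside the naming rule, was described the same way. Of 18 genes, 8 were lower and 0 higher, where 25.5% and 18.7% of all genes were, with a median of -0.95. Serpinh1 (HSP47), the collagen-specific chaperone, had ratios of -7.08, -7.07 and -7.05, the lowest of the 18. The fibroblast collagens Col1a1 and Col3a1 stood at -7.09 and -10.79 on the same arrays. Of 4 protein disulfide isomerases 3 were lower, P4hb at -2.54, Pdia3 at -1.46 and Pdia6 at -1.42, and Pdia4 (-0.40) was not called. Also lower were their oxidase Ero1a at -1.45 and the BiP exchange factor Sil1 at -1.96. The stress-induced transcription factor Ddit3 (CHOP) was at -2.53 and Sdf2l1, a BiP cofactor, at -1.24. Hsp90b1 (GRP94), the HSP90 of the ER, which is counted with the HSP90 system below and not among the 18, was at -0.60 and not called. Not called among the 18 were the stress sensors Atf6, Eif2ak3 and Ern1, at -0.75, -0.68 and -0.17.

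**Figure D2:**
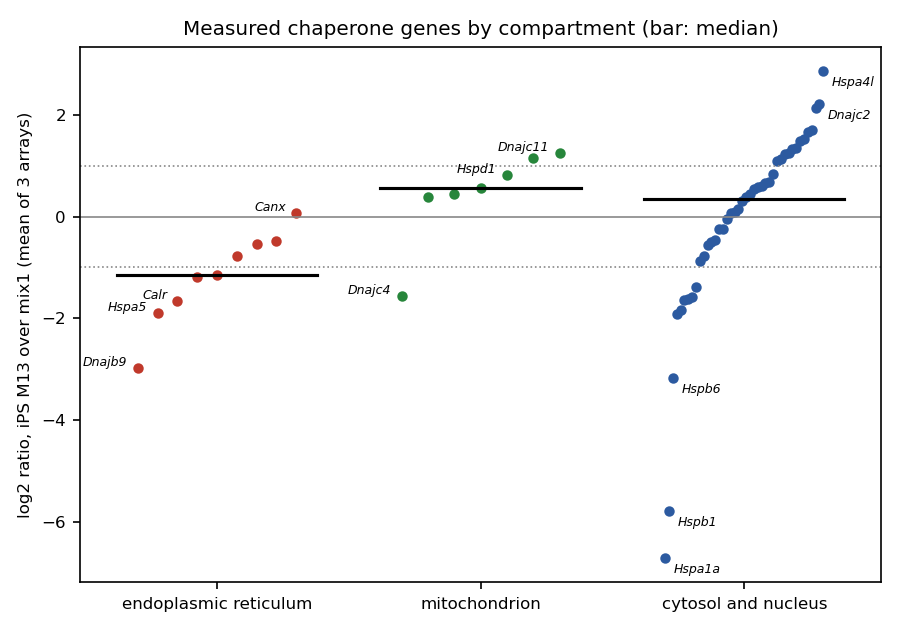
Log2 ratio of iPS M13 over mix1 (mean of 3 arrays) for each measured chaperone gene, by compartment, ordered by value within each, with a bar at the median. Dotted lines mark 2-fold. The ER median is -1.15, that of the mitochondrion 0.56 and that of cytosol and nucleus 0.35, and the last group spans the whole range.

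TRiC subunits had positive ratios throughout. Of the 8 subunits 6 were higher in iPS M13 (75.0%, against 18.7% of all genes) and 0 lower (against 25.5%). Their median was 1.28, with a range of 0.44 to 1.71. All 13 kept probes of these genes had a positive ratio. Cct6a had ratios of 1.71, 1.70 and 1.72 (1.71 ± 0.01; limma adjusted p = 1.34e-06), Cct7 had 1.48, 1.51 and 1.49, and Tcp1, the first subunit (CCT1), had 1.35, 1.35 and 1.36. These arrays differed by far less than the distance from 0. Cct4 (1.32), Cct5 (1.24) and Cct8 (1.09) were also called, and Cct2 (0.66) and Cct3 (0.44) were not. With the GC trend taken off, 4 of the 8 were called, since Cct5 (0.99) and Cct8 (0.73) dropped under 2-fold. Relative to all genes the TRiC median stayed between 1.01 and 1.36 in every setting. Of the 3 measured subunits of prefoldin, which hands actin and tubulin chains to TRiC, Pfdn1 was lower at -2.02 and Pfdn5 (-0.10) and Pfdn6 (0.33) were not called.

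HSP110 genes, the exchange factors of HSP70, were higher in 2 of 3 cases (66.7%, against 18.7% of all genes). Hspa4l (Osp94), known for its high level in testis, was the highest chaperone of all, with ratios of 2.88, 2.76 and 2.91 (2.85 ± 0.08; limma adjusted p = 3.27e-06). Its log2 signal on array 1 was 11.30 in iPS M13 and 8.41 in mix1, and a second probe gave 2.52. Hsph1 (HSP105) had ratios of 1.21, 1.23 and 1.23 (1.23 ± 0.01), which became 0.92 with the GC trend taken off. The third gene, Hspa4, pointed the other way on all arrays, at -0.51, -0.45 and -0.45, and was not called.

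The HSP70 family was split. It had 9 measured genes, 2 of them higher (22.2%, against 18.7% of all genes) and 4 lower (44.4%, against 25.5%). The family median was -0.77. That median changed sign with the filter. Where both RNAs had to be above background on all arrays, Hspa1l and Hspa12b dropped out. Of the 7 genes left 2 were higher and 2 lower (28.6% each, against 16.5% and 21.9% of all genes), and the median was 0.09. Hspa1a, the stress-inducible HSP70, had log2 signals of 8.50, 8.45 and 8.44 in iPS M13 and of 15.22, 15.15 and 15.15 in mix1. Its ratios were -6.72, -6.70 and -6.71 (-6.71 ± 0.01; limma adjusted p = 6.49e-07), a 105-fold difference and the largest of the 61 genes. A second probe gave -3.84 ± 0.11 and was well above background in iPS M13 on 2 of 3 arrays. The size of the difference thus depended on the probe while its direction did not. Hspa1b, a near-identical neighbouring copy, gave no signal well above background on its own probe, in either RNA, and whether the Hspa1a probes also bind Hspa1b RNA was not tested. Hspa1l, a testis-enriched relative, was not well above background in iPS M13 on any array and was at least 2.47-fold lower.

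Hspa8 (HSC70), the everyday HSP70 of the cytosol, had ratios of 0.10, 0.06 and 0.10 (0.09 ± 0.02) on its brightest probe and was not called. Hspa9 (mortalin), the HSP70 of mitochondria, had 0.38, 0.38 and 0.37. Hspa2, known for its role in spermatogenesis, had -0.69, -0.76 and -0.85 and was not called either. Hspa14, an atypical HSP70 that sits on the ribosome with Dnajc2, was higher at 1.52, 1.52 and 1.53. Its partner Dnajc2 (zuotin) was higher too, at 2.24, 2.17 and 2.20 (2.21 ± 0.04). The divergent relatives Hspa12a and Hspa12b went apart. Hspa12a was higher with ratios of 1.89, 1.54 and 1.55 (1.66 ± 0.20), where array 1 stood above the other two. Hspa12b was lower at -1.39 ± 0.03, well above background in iPS M13 on 2 of 3 arrays, and -0.84 with the GC trend taken off.

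Both HSP90 genes had positive ratios of less than 2-fold on their brightest probes. Hsp90aa1, its stress-inducible cytosolic form, had ratios of 0.68, 0.59 and 0.49 (0.59 ± 0.09) and Hsp90ab1, the constitutive form, had 0.64, 0.53 and 0.63 (0.60 ± 0.06). Neither was called. In the scanner software's processed signals both were called. A further 15 genes of the HSP70 and HSP90 systems lay outside the naming rule (cochaperones, regulators and the organelle HSP90 proteins Hsp90b1 and Trap1). Of these, 4 were higher and 2 lower, where 18.7% and 25.5% of all genes were, and the median was 0.33. The higher ones were the immunophilins Fkbp5 (1.67) and Fkbp4 (1.14), the HSP90 cochaperone Chordc1 (1.49) and the transcription factor Hsf2 (1.02). Lower were Hsbp1 (-1.38), which binds HSF1, and the ubiquitin ligase Stub1 (-1.24), which marks chaperone clients for breakdown. Hsf1 itself was at -0.32 and not called.

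Small heat shock proteins were lower in all 3 genes that could be measured, of 7 on the array. Of all genes tested 25.5% were lower. Hspb1 (HSP27), which binds unfolded chains and actin, had log2 signals on array 1 of 10.50 in iPS M13 and 16.28 in mix1. Its ratios were -5.78, -5.76 and -5.82 (-5.79 ± 0.03; limma adjusted p = 6.49e-07), a 55.3-fold difference. Hspb6 (HSP20), known from muscle, had -3.19, -3.18 and -3.18, and Hspb8 (HSP22) had -1.64, -1.61 and -1.65. Hspb8 fell short of 2-fold without loess, at -0.78 with median centring. Hspb2 was well above background only in mix1 and on 2 of 3 arrays, with an unfiltered ratio of -0.82, and Hspb3, Hspb7 and Hspb9 were not above background in either RNA, so the family median of -3.18 rests on the 3 genes alone. The related crystallin Cryab, outside the naming rule, was at -6.79, -6.85 and -6.85. Bag3, which joins Hspb8 and HSP70 to clear damaged proteins by autophagy, was lower with ratios of -1.60, -1.59 and -1.58, and -0.94 with median centring. The other BAG genes were not called, with Bag1 at 0.54, Bag4 at -0.25 and Bag5 at -0.51.

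A probe of each of the 2 lowest chaperones is shown as in the files, since the ratio of a gene is that of its probe. The Hspa1a line is its second probe, with the ratio of -3.84, at chr20:3957065-3957124 of build rn3. The Hspb1 probe spans chr12:21898758-21898928, more than its own length.
Hspa1a: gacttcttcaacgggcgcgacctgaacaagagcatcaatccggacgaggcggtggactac
Hspb1: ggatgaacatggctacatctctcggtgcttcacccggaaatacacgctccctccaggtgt
The Hspa1a and Hspb1 ratios of -6.71 and -5.79 each averaged 10 spots of 1 probe on every array.

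**Figure D3:**
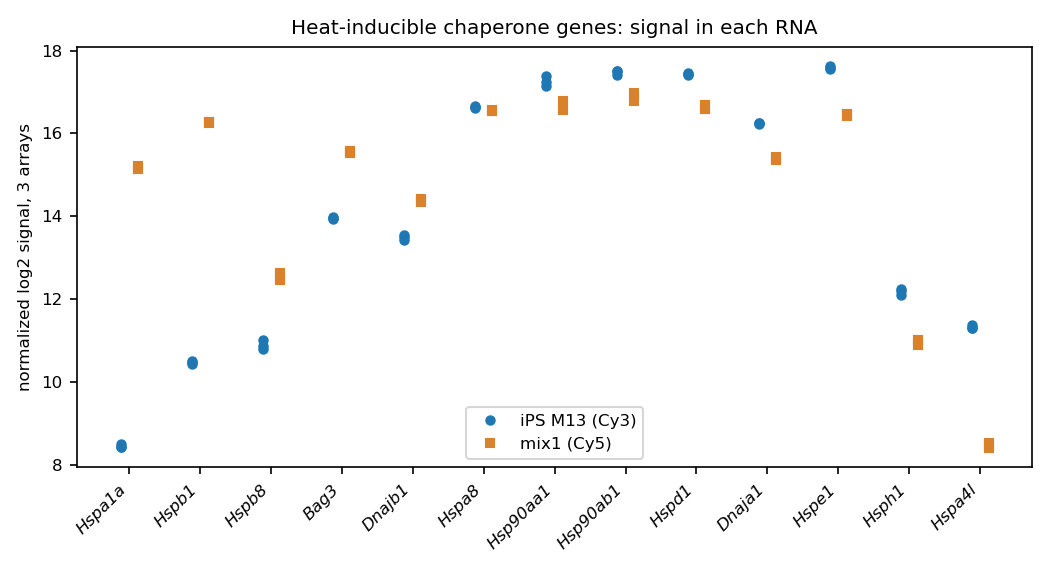
Normalized log2 signal on the 3 arrays in iPS M13 (circles) and in mix1 (squares) for the 13 measured heat-inducible chaperone genes, ordered by ratio. Signals of different genes come from different probes and are not comparable. The pairs are farthest apart for Hspa1a and Hspb1, where mix1 is higher, and the order turns at Hspa8.

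Of 14 genes listed as heat-inducible targets of HSF1, 13 were measured. Higher were Hspa4l, Hsph1 and Hspe1 (23.1%, against 18.7% of all genes), and lower were Hspa1a, Hspb1, Hspb8 and Bag3 (30.8%, against 25.5%), shares near the background. Their median was 0.59, since Hsp90aa1, Hsp90ab1, Hspd1 and Dnaja1 lay between 0.59 and 0.83. With the processed signals 7 of the 13 were higher (53.8%, against 31.1% of all genes).

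J-domain genes, which choose the clients of HSP70, fall into classes A, B and C. Of 4 DNAJA genes 1 was higher (25.0%, against 18.7% of all genes), Dnaja2 at 1.13. Its close relative Dnaja1 had 0.80, 0.84 and 0.86 and was not called. Dnaja3 of the mitochondrion was at 0.45 and Dnaja4 at -0.57. In the DNAJB class 3 of 6 measured genes were lower, 0 were higher and the median was -1.26. Besides Dnajb9 the lower genes were the cytosolic Dnajb4, with ratios of -1.63, -1.61 and -1.64, and Dnajb5, with -2.12, -1.54 and -2.08 (-1.91 ± 0.32). Array 2 stood above the others for Dnajb5, which was well above background in iPS M13 on 2 of 3 arrays. Where both RNAs had to be above background on all arrays, Dnajb5 dropped out. Of the 5 DNAJB genes left 2 were lower and 0 higher, and the median was -0.88. Dnajb1 (HSP40), the heat-inducible partner of HSP70, had -0.91, -0.88 and -0.87, just inside the 2-fold limit. Dnajb4 was at -0.84 with median centring.

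Among 15 DNAJC genes, the most varied class, 3 were higher and 3 lower, and the median was 0.06. These shares lay near those of all genes, of which 18.7% were higher and 25.5% lower. Dnajc6 (auxilin), which uncoats clathrin vesicles, was higher with ratios of 2.11, 2.17 and 2.14, although its 4 kept probes ranged from 0.78 to 2.14. Dnajc2 is described above, and Dnajc11, a mitochondrial membrane protein, was the third at 1.24. Lower were Dnajc4 (-1.57, but -0.95 with median centring and -0.96 with the GC trend taken off) and the ER genes Dnajc3 and Dnajc18. The histone chaperone Dnajc9 (0.06), the splicing-related Dnajc8 (-0.05) and the synaptic vesicle protein Dnajc5 (-0.25) were near 0. Dnajc7, an adaptor between HSP70 and HSP90, was at 0.68, Dnajc13 of endosomes at 0.39 and Dnajc17 at 0.30.

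Mitochondrial chaperones had mostly positive ratios. Of 7 genes 6 had a positive ratio, and the median was 0.56. The calls were 2 higher (28.6%, against 18.7% of all genes) and 1 lower (14.3%, against 25.5%). Hspe1 (HSP10), the lid of the mitochondrial chaperonin, had ratios of 1.17, 1.15 and 1.10 (1.14 ± 0.04), and 0.90 with the GC trend taken off. Hspd1 (HSP60), its barrel, had 0.88, 0.73 and 0.84 (0.82 ± 0.08) on its brightest probe and was not called. Dnajc15 (0.56) and Dnaja3 (0.45) were also positive, and Dnajc4 was the exception. Relative to all genes the median of the 7 stayed between 0.46 and 0.64 in every setting. Of 6 further mitochondrial folding and protease genes 1 was higher and 0 were lower, where 18.7% and 25.5% of all genes were. The higher one was the disaggregase Clpb at 1.35. The HSP70 exchange factor Grpel1, at 0.89, was not called.

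The remaining genes were Hspbap1, named for its binding to Hspb1, which was higher at 1.22, the exchange factor Hspbp1 at -0.02, and Tmem132a, named Hspa5bp1 in the files for its binding to BiP, at -0.97. The last 2 were not called.

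Several abundant chaperones had probes that disagreed in size. Of the 23 genes with 2 or more kept probes, 5 had probes on either side of the call (Cct5, Dnajc6, Hsp90aa1, Hspa8 and Hspd1) and 2 had probes of opposite sign (Dnajb6 and Dnajc8). For Hspd1 the brightest probe gave the smallest ratio, 0.82, and the other 3 gave 1.95, 2.33 and 2.27. For Hsp90aa1 it gave 0.59 against 0.86, 1.67 and 1.72. The 4 Hspa8 probes gave 0.09, 0.08, 0.98 and 1.29. With the mean over probes, 5 of the 13 heat-inducible genes were higher (38.5%, against 18.6% of all genes in that setting). Parts of these genes are repeated in pseudogenes, and which transcripts each probe bound was not tested. The Hspd1 probes with ratios of 1.95 and 2.33 share a run of 30 bases, in capitals below, and differ around it.
Hspd1, ratio 1.95: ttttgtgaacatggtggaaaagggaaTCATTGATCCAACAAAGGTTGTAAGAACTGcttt
Hspd1, ratio 2.33: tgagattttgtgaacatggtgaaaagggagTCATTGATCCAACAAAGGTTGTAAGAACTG

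**Figure D4:**
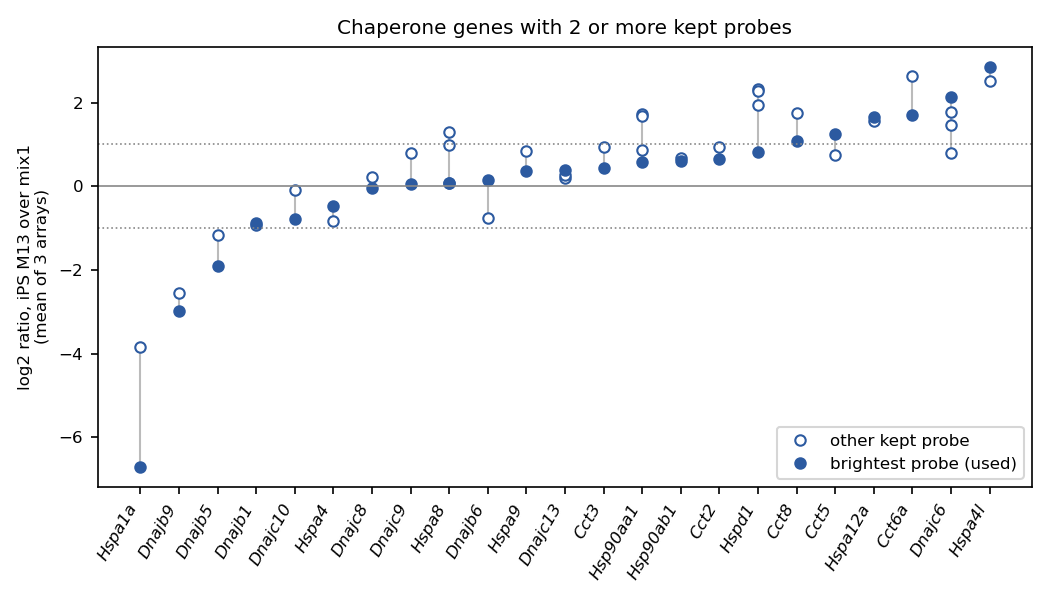
Log2 ratio of iPS M13 over mix1 (mean of 3 arrays) of every kept probe of the 23 chaperone genes with 2 or more, with the brightest probe, used for the gene, filled. Dotted lines mark 2-fold. The span is widest for Hspa1a, from -6.71 to -3.84, and next for Hspd1, from 0.82 to 2.33.

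**Figure D5:**
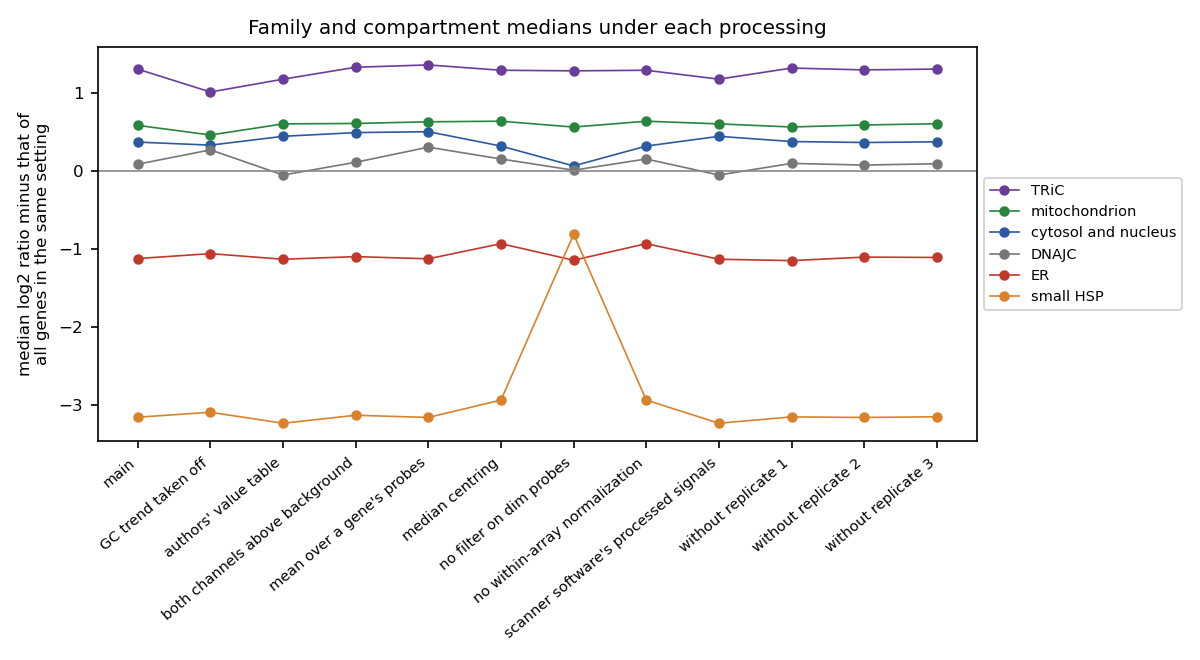
Median log2 ratio of chaperone groups minus the median of all genes in the same setting, for the processing used above (main) and each alternative. TRiC stays between 1.01 and 1.36 and the ER group between -1.15 and -0.93. The small heat shock genes move to -0.81 without the filter on dim probes, where 4 genes not measured otherwise enter.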

How the data were processed

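The deposited spot intensities came from the scanner software unsubtracted (Agilent Feature Extraction per the submitters' processing notes, version 9.5.3.1 per the file headers). The same files held its processed intensities, with background detrending and dye normalization, and log10 ratios of Cy5 over Cy3, per the file headers. The deposited value table held log2 ratios of unstated direction and centring. Against the log10 ratios its columns had slopes of -3.32, so it was read as Cy3 over Cy5, and its column medians were -0.0413, -0.0282 and -0.0286. Per the file headers, probes are placed on build rn3.

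Using limma 3.58.1 (R 4.3.3), mean signals were corrected for the median local background by normexp with offset 50. Loess then normalized each array, with weight 0 for control spots. Spots marked as outliers (205, 263 and 192 on arrays 1 to 3) were left out. Of 41012 probes, 24177 were kept, and each gene was represented by its brightest kept probe. Names were updated through RefSeq, so Hspca is given as Hsp90aa1, Hspcb as Hsp90ab1 and Hspa9a as Hspa9. The mean ratio was tested against 0 with lmFit and eBayes (1.55 prior degrees of freedom), with Benjamini-Hochberg adjustment over 20321 genes. Calls required an adjusted p below 0.05 and a log2 ratio of 1 or more in size. A bound (at least N-fold) divides the bright RNA's mean by, per array, the dim RNA's own signal or the least signal that passed as well above background, whichever was higher, after loess and Aquantile scaling, and bounds are open to dye bias. Levels of different probes were not compared.

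The genes, families, compartments and other gene lists were chosen with earlier results of these data known. Values on each array are given for the 8 highest and 8 lowest called chaperones measured in both RNAs and for 19 fixed by name. Some genes are on both lists, and Hspa1b, fixed by name, was not measured and has no values given. Tables, promoter words and figures were made in Python 3.11.15 (numpy 2.4.6, pandas 2.3.3, matplotlib 3.10.9).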

Additional observations from a re-analysis of the deposited data

How the results depend on the processing

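Of the 31 called chaperones, 19 kept their call under every alternative that gave a value, 12 missed it under at least 1, and 0 changed sign. Leaving out any array, or the filter on dim probes, changed no call of the 61. The 12 were Bag3, Calr, Cct5, Cct8, Dnajb4, Dnajc18, Dnajc3, Dnajc4, Hspa12b, Hspb8, Hspe1 and Hsph1. Of all genes, 36.4% were higher and 17.8% lower with median centring, and 34.5% and 18.4% with no within-array normalization. The processed signals and the authors' value table both gave 31.1% and 23.8%. With the GC trend taken off these shares were 17.6% and 24.1%, and with the mean over probes 18.6% and 25.2%. Median centring gave 25 chaperones higher and 8 lower, ER lower 2, ER lectins lower 0, mitochondrion higher 5 and lower 0, DNAJA higher 3, DNAJC higher 7 and lower 0, BAG higher 1 and lower 0, mitochondrial chaperonin higher 2, heat-inducible higher 5 and lower 2, and genes outside the rule higher 12 and lower 7. With no within-array normalization the counts were 25 chaperones higher, ER lower 3, mitochondrion higher 5, DNAJA higher 3, DNAJC higher 7 and lower 1, BAG higher 1 and lower 0, mitochondrial chaperonin higher 2, heat-inducible higher 5 and lower 2, and outside the rule 12 and 7. The processed signals and the authors' value table both gave ER lower 3, HSP90 higher 2, mitochondrial chaperonin higher 2, DNAJA higher 2, DNAJC lower 1, heat-inducible higher 7 and outside the rule higher 8. With the GC trend taken off, mitochondrion higher was 1 and lower 0, HSP110 higher 1, HSP90 higher 1 and mitochondrial chaperonin higher 0. The mean over probes gave HSP90 higher 1, mitochondrial chaperonin higher 2, heat-inducible higher 5 and outside the rule higher 3. Requiring both RNAs above background left 58 chaperones, 16 higher (27.6%, against 16.5% of all genes) and 12 lower (20.7%, against 21.9%). The count of lower genes fell, to 2 for HSP70, since 3 called genes were no longer tested. Apart from that case, the cause was not tested.

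Signs turned only for genes that were not called. With median centring and with no within-array normalization, in that order, the log2 ratios were 0.51 and 0.45 for Bag4, 0.34 and 0.29 for Bag5, 0.20 and 0.14 for Dnaja4, 0.35 and 0.30 for Dnajb11, 0.24 and 0.19 for Dnajc14, 0.25 and 0.20 for Dnajc5, 0.50 and 0.45 for Dnajc8, 0.24 and 0.18 for Hspa4 and 0.83 and 0.78 for Hspbp1. The processed signals and the authors' value table both gave 0.13 for Bag4, 0.012 for Dnajc5, 0.083 for Dnajc8 and 0.40 for Hspbp1. With the GC trend taken off, Canx was at -0.24, Dnajc8 at 0.35, Dnajc9 at -0.033, Hspa8 at -0.0088 and Hspbp1 at 0.60. The mean over probes gave -0.31 for Dnajb6 and 0.084 for Dnajc8. No paired analysis was possible because the labels give 1 group of samples and mix1 has no replicate numbers. Signal over background limits the 7 genes not measured and the sizes for Hspa1l, Hspa12b and Dnajb5 in iPS M13.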

Other observations

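Genes whose current symbol meets the naming rule but whose name in the files does not were kept out of the counts of chaperones by family and compartment. Hsp90b1 alone among them was on another list above, that of further HSP70 and HSP90 system genes. Of 16 such genes 10 were measured, with 1 higher and 4 lower in iPS M13, where 18.7% and 25.5% of all genes were. Dnajc12 was higher, with ratios of 2.29, 2.24 and 2.30. Dnajc22 was lower at -2.87, Dnajb3 at -1.93, the ER-associated HSP70 relative Hspa13 at -1.22 and Dnajb12, a J-domain protein of the ER membrane, at -1.13. Dnajb3 was well above background in iPS M13 on 1 of 3 arrays. Hsp90b1 (-0.60) and Bag6 (-0.47) were not called.

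Probes now assigned to chaperone pseudogenes were mostly on the iPS side. Of 18 such names 16 were measured, and 10 were higher and 0 lower, against 18.7% higher and 25.5% lower among all genes tested. Those of Hspd1 had ratios of 2.64 (Hspd1-ps6), 2.43 (Hspd1-ps7), 2.35 (Hspd1-ps13) and 2.02 (Hspd1-ps21). The 4 kept probes of Hspd1 itself ranged from 0.82, on the brightest, to 2.33, so the ranges overlapped. Hsp90aa1-ps13 was at 2.60, and the 4 kept probes of Hsp90aa1 ranged from 0.59, on the brightest, to 1.72. The 7 Hspa8 pseudogene probes ranged from -0.13 (Hspa8-ps27) to 2.33 (Hspa8-ps34). Probes of near-identical copies may bind the same RNA, and which transcripts they measured was not tested.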
